A study of Mus musculus with 22 samples.

Results

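The immediate early response genes described here are Fos, Fosb, Jun, Junb, Egr1, Atf3, Ier2, Ier3, Dusp1 and Zfp36. They were chosen by symbol: every probe of the non-normalised scanner table that the platform annotation maps to these symbols was taken, whatever its values. This gave 11 probes for the 10 genes, of 45281 probes on the array. Of the 11 probes, 10 entered the tests, among 19993 tested probes in all. The second probe of Junb was not detected on any array and was not tested.

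RNA of colonic epithelial cells from BALB/c mice was labelled with biotin as cRNA and measured on Illumina bead arrays, the mice being all labelled male and 6 to 10 weeks of age. The groups were pIgR knockout mice given antibiotic for 17 days (KO_antibiotic, 6 arrays), pIgR knockout mice left untreated (KO_untreated, 6 arrays), wild-type mice given antibiotic for the same time (WT_antibiotic, 5 arrays) and wild-type mice left untreated (WT_untreated, 5 arrays). The polymeric immunoglobulin receptor (pIgR) carries secretory antibodies across the epithelium, and the series title asks about mucosal homeostasis without them. Cells were released by shaking opened colon in 20 mM EDTA for 25 min and then by hand for 5 min, with no sorting step named; which antibiotics were given, whether an array holds 1 mouse or a pool, and how long each colon took from excision to lysis are not stated in the labels.

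Immediate early genes are transcribed within minutes of a stimulus, without new protein synthesis, when kinase cascades activate transcription factors already present in the cell. Their transcripts are short-lived, so the level at one moment reflects the recent past of the cell. In the gut epithelium they respond to growth factors, microbial products and injury, and in many tissues they also rise when cells are dissociated.

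Fos and Fosb encode leucine zipper proteins that pair with Jun family proteins to form the transcription factor AP-1, and Jun and Junb encode partners of that family. Egr1 encodes a zinc finger transcription factor, and Atf3 a leucine zipper factor of the ATF/CREB family that is induced by many stresses. Ier2 encodes a nuclear protein and Ier3 a short-lived protein linked to cell survival. Dusp1 and Zfp36 are brakes on the same response. The Dusp1 phosphatase switches off MAP kinases, and Zfp36 (tristetraprolin) binds AU-rich elements in messenger RNAs and promotes their decay.

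Promoter sequence from RefSeq (GRCm38.p6) was at hand for 8 of the 10 genes, all but Egr1 and Ier2. The 5 printed here are the 4 genes with a promoter here that take part in the correlated pairs described further on (Zfp36, Ier3, Jun and Dusp1), and Fos, which took part in none. Each line gives the 250 bases before the start site, 5′ to 3′ on the strand of the gene. Capitals mark cyclic AMP response element half-sites (TGACGT or its reverse complement), CArG boxes (the serum response element core) and TATAAA.
Zfp36, chr7:28379229-28379478, minus strand: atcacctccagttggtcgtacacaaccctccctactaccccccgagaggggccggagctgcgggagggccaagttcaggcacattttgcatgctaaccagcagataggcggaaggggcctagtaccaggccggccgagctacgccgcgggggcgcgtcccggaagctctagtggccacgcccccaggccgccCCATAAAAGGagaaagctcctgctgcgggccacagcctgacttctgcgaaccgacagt
Ier3, chr17:35821463-35821712, plus strand: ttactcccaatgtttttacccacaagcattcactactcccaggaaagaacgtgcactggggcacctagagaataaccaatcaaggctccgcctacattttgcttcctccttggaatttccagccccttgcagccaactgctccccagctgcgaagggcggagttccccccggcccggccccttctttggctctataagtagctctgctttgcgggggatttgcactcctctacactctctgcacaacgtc
Jun, chr4:95052223-95052472, minus strand: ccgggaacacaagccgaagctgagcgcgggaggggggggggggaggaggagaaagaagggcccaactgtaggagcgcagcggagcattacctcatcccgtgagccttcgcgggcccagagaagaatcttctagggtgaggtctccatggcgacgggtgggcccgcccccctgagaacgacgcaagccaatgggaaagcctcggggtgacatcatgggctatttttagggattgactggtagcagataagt
Dusp1, chr17:26508473-26508722, minus strand: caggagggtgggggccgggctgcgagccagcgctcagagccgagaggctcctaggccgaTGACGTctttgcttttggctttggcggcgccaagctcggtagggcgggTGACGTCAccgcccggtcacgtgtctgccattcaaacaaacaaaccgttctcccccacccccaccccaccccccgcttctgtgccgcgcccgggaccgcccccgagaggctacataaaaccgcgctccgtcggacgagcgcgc
Fos, chr12:85473640-85473889, plus strand: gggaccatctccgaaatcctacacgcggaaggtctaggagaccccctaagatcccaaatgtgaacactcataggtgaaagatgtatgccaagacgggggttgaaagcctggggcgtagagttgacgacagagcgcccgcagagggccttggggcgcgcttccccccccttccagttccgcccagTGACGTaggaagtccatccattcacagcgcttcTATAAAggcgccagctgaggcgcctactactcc

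Motifs were searched on both strands in 300 bases, 250 before and 50 after each start site, of the 8 genes and of all 32851 promoters in the table. The half-site TGACGT was found in 3 of the 8 (Atf3, Dusp1 and Fos) and in 7.51% of all promoters. Dusp1 alone held the full palindrome TGACGTCA, whose first base lies at -143, and 1.79% of all promoters hold it. It overlaps half-sites at -143 and -141, and a separate half-site begins at -191. The Fos half-site begins at -66 and its TATAAA at -33. TATAAA was in 2 of the 8 (Fos and Junb), against 13.6% of all promoters. The EGR site GCGGGGGCG was in Fosb and Zfp36, against 2.91% of all promoters. The CArG box was in Zfp36, with its first base at -58, against 1.63% of all promoters. The AP-1 site TGACTCA was in none of the 8 windows, against 5.2% of all promoters. The promoters of Ier3 and Jun held none of these letters in their windows. Only exact letters were sought, so variant sites and sites outside the window were not counted, and no match here does not mean no site. The half-site overlaps the palindrome by construction, so the counts of these motifs are not independent.

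Between 15975 and 18388 probes were detected per array (detection p under 0.05), and precision is limited by how many arrays each group has. The probe of Pigr, the deleted gene, averaged 9.34 ± 0.60 in KO_antibiotic and 9.99 ± 0.74 in KO_untreated mice, against 11.55 ± 0.27 in WT_antibiotic and 11.85 ± 0.37 in WT_untreated mice (log2 level, mean ± SD), and no KO array reached a WT array of the same treatment. It stayed above background in KO cells; whether it lies in the deleted part is not stated. All 9 epithelial markers (such as Epcam and Vil1) were detected on all 22 arrays, and 1 of them, Krt18, passed the test in 3 comparisons. Of 15 leukocyte markers 8 were tested, and none passed the test in any comparison; the B cell marker Cd79b differed most, by 1.73 in the interaction (adjusted p = 0.515, limma). In that list the T cell marker Cd3e and Coro1a, Laptm5 and Cd52 were detected on 22 of 22 arrays, Cd79b and Lyz2 on 21 and Ptprc on 6, whereas Cd8a, Itgam and Itgax were not detected on any. None of the 5 glial and neuronal markers was detected on enough arrays for a test. Of the stroma, muscle and endothelium markers, 5 of 11 were tested. In such bulk samples fewer cells of a type and less RNA per cell cannot be told apart. A suffix found in the descriptions of 5 KO_untreated arrays occurs in no other group, so whatever it marks cannot be told apart from that group. KO_untreated 1 and 2 share a description number, and so do WT_untreated 3 and KO_untreated 6, which differ in genotype. What the number marks is not stated.

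All 10 genes were on in every group. A log2 level here is the background-corrected, quantile-normalised bead signal on the log2 scale, after an offset of 16. Fos, Jun, Junb (first probe), Egr1, Atf3, Ier3, Dusp1 and Zfp36 were detected on 22 of 22 arrays, Ier2 on 21 and Fosb on 19. Fosb was missed on 1 KO_untreated and 2 WT_untreated arrays, and Ier2 on 1 KO_untreated array. The second Junb probe stayed between 4.18 and 4.63 on all arrays, and was not well above background on any. Levels of different probes cannot be set against each other, so each gene is compared only with itself.

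**Figure D1:**
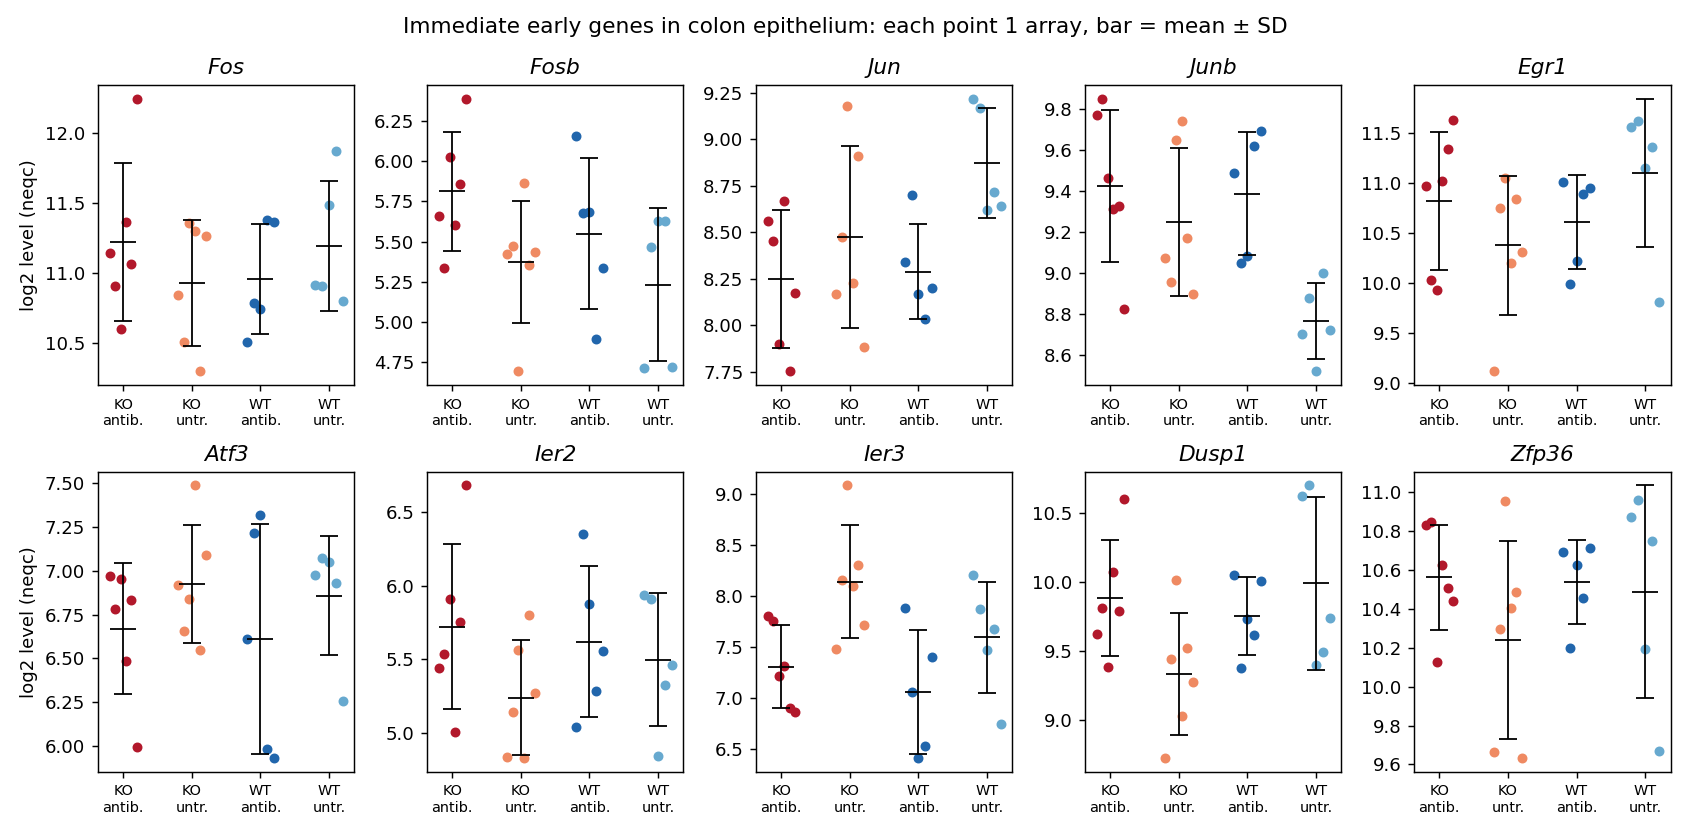
Log2 level (y axis) of the tested probe of each gene on every array, by group (x axis, KO antibiotic, KO untreated, WT antibiotic, WT untreated, from left to right); bars show mean ± SD, and each panel has its own scale. Groups overlap in nearly every panel; Junb in WT_untreated (8.52 to 9.0007) lies below every WT_antibiotic array (9.05 to 9.69).

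In each gene the 4 group means were put in order and each mean set against its neighbour. Of the 30 neighbouring pairs, 29 were closer than the larger SD of the pair. The exception was Junb, whose mean was 9.25 ± 0.36 in KO_untreated mice (n = 6) and 8.76 ± 0.18 in WT_untreated mice (n = 5). Its other means, 9.42 ± 0.37 in KO_antibiotic (n = 6) and 9.39 ± 0.30 in WT_antibiotic mice (n = 5), lay within 1 SD of KO_untreated. WT_untreated mice had the highest mean of Jun (8.87 ± 0.30), Egr1 (11.10 ± 0.74) and Dusp1 (9.99 ± 0.63), and the lowest of Junb and Fosb. KO_untreated mice had the lowest mean of Fos, Egr1, Ier2, Dusp1 and Zfp36, and the highest of Ier3 (8.14 ± 0.55) and Atf3 (6.92 ± 0.34).

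The arrays of a group differed widely in these genes. The residual SD around the group means had a median of 0.447 over the 10 genes, against 0.294 over all tested probes. Egr1 varied most, with a residual SD of 0.664, at the 97.5th percentile of tested probes. Ier3 (0.528), Ier2 (0.484), Fos (0.477) and Dusp1 (0.456) followed, between the 86.8th and the 92.7th percentile. Junb, at 0.319, varied least of the 10 and was at the 58.9th percentile. From its lowest to its highest array Ier3 spanned 2.67 on the log2 scale and Egr1 2.51.

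Several arrays lay mostly above or mostly below their group means in these genes. On WT_untreated 5 all 10 genes were below the mean of their group, from 0.03 below it for Ier2 to 1.29 below it for Egr1. KO_untreated 1 had 9 of 10 genes below their group mean, Fosb being the exception, and Egr1 1.26 below it. On KO_untreated 3, by contrast, 8 of 10 were above it, with Ier3 0.95 above. WT_untreated 2 had 9 of 10 above, Fos being the exception, and WT_antibiotic 1 had 8 of 10 above. The mean deviation of the 10 genes was lowest on WT_untreated 5, highest on KO_untreated 3, and between -0.50 and 0.41 on all arrays. The main results that rest on WT_untreated mice are therefore stated with and without WT_untreated 5.

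Whether the receptor mattered in the absence of antibiotic was asked by comparing KO_untreated with WT_untreated mice. None of the 10 genes passed the test (limma, Benjamini-Hochberg over all tested probes, threshold 0.05). Of all tested probes 10.9% did (2180 of 19993), 5.55% being higher and 5.35% lower. Among only 10 genes, none passing is close to this share, and the wide residual spread of these genes makes a call harder. At an unadjusted p under 0.05 there were 2 genes of 10, Junb higher and Dusp1 lower in KO_untreated mice, against 29.1% of all probes. The median difference over the 10 genes was -0.25, against 0.04 over all tested probes, with 4 genes positive and 6 negative.

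Junb in KO_untreated mice ranged from 8.90 to 9.74 with a median of 9.12, against 8.70, 8.88, 8.52, 9.0007 and 8.72 in WT_untreated mice. All 6 KO_untreated arrays were above the WT_untreated mean, but the groups overlap at their edges. The difference was 0.48 ± 0.19 on the log2 scale (SE; 95% interval 0.10 to 0.87; adjusted p = 0.0922, limma). Without WT_untreated 5 it was 0.47, and its adjusted p was 0.151.

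Dusp1 in KO_untreated mice ranged from 8.72 to 10.01 with a median of 9.36, against 10.63, 10.70, 9.40, 9.49 and 9.74 in WT_untreated mice. The 2 highest WT_untreated arrays, 1 and 2, lay above every KO_untreated array, and the other three lay inside the KO_untreated range. The difference was -0.66 ± 0.26 (SE; 95% interval -1.18 to -0.13; adjusted p = 0.0927, limma). Without WT_untreated 5 it was -0.72, with an adjusted p of 0.111.

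Egr1 in KO_untreated mice ranged from 9.11 to 11.05 with a median of 10.53, against 11.56, 11.62, 11.15, 11.36 and 9.81 in WT_untreated mice. WT_untreated 1 to 4 were above all 6 KO_untreated arrays and WT_untreated 5 was in the lower part of their range. The difference was -0.72 ± 0.36 (SE; 95% interval -1.47 to 0.02; adjusted p = 0.185, limma). Without WT_untreated 5 it was -1.05, with an adjusted p of 0.068, and leaving that array out changed no gene's call in this comparison. Without KO_untreated 1, the lowest array, it was -0.47.

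The other 7 genes lay between -0.40 (Jun) and 0.54 (Ier3) here, with 95% intervals that all include 0. Ier3 in KO_untreated mice ranged from 7.48 to 9.09 with a median of 8.13, against 8.20, 7.88, 7.47, 7.68 and 6.75 in WT_untreated mice. Its interval ran from -0.06 to 1.15 and so includes no change, and without WT_untreated 5 the difference was 0.33 (adjusted p = 0.501, limma). Fos differed by -0.27, Zfp36 by -0.25, Ier2 by -0.26, Fosb by 0.14 and Atf3 by 0.07. Without WT_untreated 5 the Zfp36 difference was -0.45 and that of Atf3 -0.08.

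**Figure D2:**
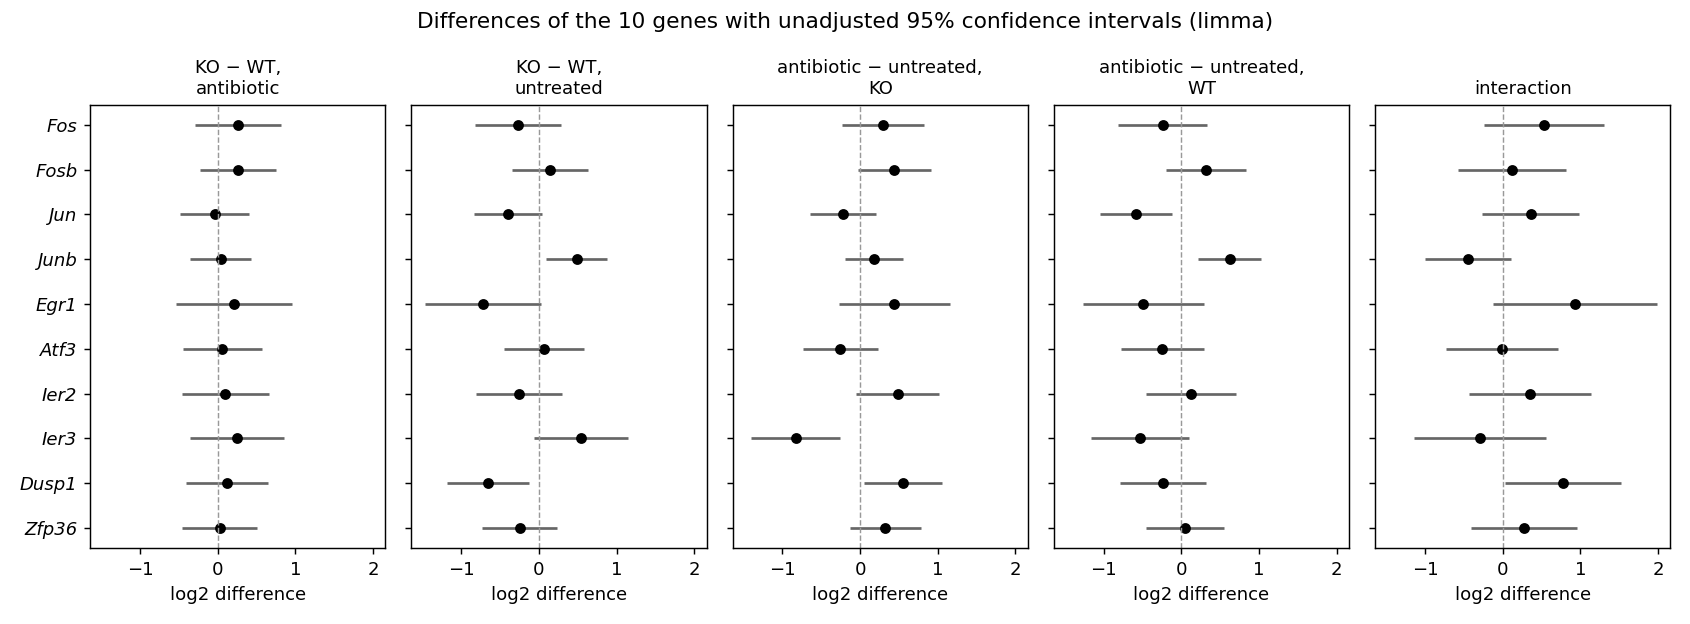
Log2 difference (x axis) of each of the 10 genes in the 5 comparisons, with its unadjusted 95% confidence interval from limma; each panel is a comparison, and the interaction is the antibiotic difference in KO minus that in WT. No gene passed the adjusted threshold in any panel; in the KO panel for antibiotic the interval of Ier3 runs from -1.41 to -0.26.

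The effect of antibiotic in knockouts was asked by comparing KO_antibiotic with KO_untreated mice. Again none of the 10 genes passed the test, against 12.4% of all tested probes (2478), 5.33% higher and 7.06% lower. At an unadjusted p under 0.05 there were 2, Ier3 lower and Dusp1 higher in KO_antibiotic mice, against 24.1% of all probes. The median difference of the 10 was 0.31, against 0.01 over all tested probes, with 7 positive and 3 negative (Ier3, Atf3 and Jun).

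Ier3 was nearest to the threshold. In KO_antibiotic mice it ranged from 6.86 to 7.80 with a median of 7.26, against 7.48 to 9.09 with a median of 8.13 in KO_untreated mice. All 6 KO_antibiotic arrays were below the KO_untreated mean, and the groups overlap. The difference was -0.83 ± 0.28 (SE; 95% interval -1.41 to -0.26), which is 0.562 times the KO_untreated level, with an adjusted p of 0.0521 (limma). Its adjusted p lay between 0.0286 and 0.142 over the alternative settings, so its side of the threshold depended on the processing, while its direction was the same in each. Without WT_untreated 5, which enters this comparison only through the shared spread, its adjusted p was 0.0383.

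Dusp1 in KO_antibiotic mice ranged from 9.39 to 10.60 with a median of 9.80, against 8.72 to 10.01 with a median of 9.36 in KO_untreated mice. All 6 KO_antibiotic arrays exceeded the KO_untreated mean. The difference was 0.55 ± 0.24 (SE; 95% interval 0.04 to 1.05; adjusted p = 0.163, limma). Ier3 and Dusp1 thus differed in opposite directions, neither past the threshold.

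The remaining genes differed by between -0.25 (Atf3) and 0.48 (Ier2) in this comparison. Fos in KO_antibiotic mice ranged from 10.60 to 12.25 with a median of 11.10, against 10.30 to 11.36 with a median of 11.05 in KO_untreated mice. KO_antibiotic 6 was the highest of all 22 arrays for Fos, 1.03 above its group mean. Fosb differed by 0.44, Egr1 by 0.44, Zfp36 by 0.32, Fos by 0.29, Junb by 0.18 and Jun by -0.22. Without KO_antibiotic 6 the Fos difference was 0.09, and without KO_untreated 1 that of Egr1 was 0.19.

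In wild-type mice the same question was asked of WT_antibiotic against WT_untreated mice. No gene of the 10 passed the test, against 4.75% of all tested probes (950), 2.49% higher and 2.27% lower. At an unadjusted p under 0.05 there were 2, Junb higher and Jun lower in WT_antibiotic mice, against 19.3% of all probes. The median difference of the 10 was -0.24, against 0.03 over all tested probes.

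Junb was the single gene of the 10 whose groups did not overlap in any comparison, which held for 5.73% of all tested probes in this one. In the others none of the 10 was free of overlap, against 9.37% of all tested probes for KO_untreated and WT_untreated, 6.19% for KO_antibiotic and KO_untreated, and 0.245% for KO_antibiotic and WT_antibiotic. It had 9.49, 9.05, 9.08, 9.62 and 9.69 in WT_antibiotic mice, against 8.70, 8.88, 8.52, 9.0007 and 8.72 in WT_untreated mice. The lowest WT_antibiotic array, at 9.05, exceeded the highest WT_untreated array, at 9.0007, by a small margin. The difference was 0.62 ± 0.20 (SE; 95% interval 0.22 to 1.03), a ratio of 1.54, with an adjusted p of 0.0687 (limma) and of between 0.00705 and 0.366 over the alternative settings. Without WT_untreated 5 it was 0.61.

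Jun, which encodes the AP-1 partner of the same family, had 8.34, 8.70, 8.17, 8.03 and 8.20 in WT_antibiotic mice, against 9.22, 9.17, 8.62, 8.71 and 8.64 in WT_untreated mice. All 5 WT_antibiotic arrays were below the WT_untreated mean, and 1 of them, at 8.70, reached into the WT_untreated range. The difference was -0.59 ± 0.22 (SE; 95% interval -1.05 to -0.12; adjusted p = 0.137, limma). Without WT_untreated 5 it was -0.64.

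Ier3 had 7.88, 7.06, 6.41, 6.54 and 7.40 in WT_antibiotic mice, against 8.20, 7.88, 7.47, 7.68 and 6.75 in WT_untreated mice. The groups overlap, and the difference of -0.54 ± 0.30 (SE) has an interval that includes 0 (-1.17 to 0.09; adjusted p = 0.348, limma). Without WT_untreated 5 it was -0.75, with an adjusted p of 0.167. Egr1 differed by -0.49, or by -0.81 without WT_untreated 5, and neither value passed the test. The 6 genes left lay between -0.25 (Atf3) and 0.32 (Fosb).

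With antibiotic, KO_antibiotic and WT_antibiotic mice were close. None of the 10 genes passed the test and none reached an unadjusted p under 0.05, against 0.03% (0.005% higher and 0.025% lower) and 3.27% of all tested probes. The differences ran from -0.04 (Jun) to 0.26 (Fosb and Fos), with a median of 0.11, against 0.00 over all probes. The intervals bound what could have been missed: the widest, for Egr1, ran from -0.54 to 0.95, and the narrowest, for Junb, from -0.35 to 0.43.

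The interaction asked whether the antibiotic difference was itself different in KO and in WT mice. No gene of the 10 passed, against 0.01% of all tested probes (2), with 0% higher and 0.01% lower. Dusp1 had an interaction of 0.78 ± 0.36 (SE; unadjusted p = 0.0409; adjusted p = 0.554, limma), the 1 gene of 10 under an unadjusted 0.05, against 8.78% of all probes. The Dusp1 difference was 0.55 in KO and -0.24 in WT mice. Egr1 had the largest value of the 10, at 0.93 ± 0.51 (SE; adjusted p = 0.598, limma). Without WT_untreated 5 the interactions were 0.84 for Dusp1 and 1.25 for Egr1, neither past the threshold. The comparisons above share groups, so their values are not independent: KO_untreated enters both the genotype and the antibiotic comparison with opposite sign.

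Arrays of the same group were then compared with each other, to see which of these genes varied together. Each gene was taken as its deviation from its group mean on 22 arrays. All 45 pairs were compared after the data had been seen, with p-values from 100000 permutations of arrays within groups and Benjamini-Hochberg adjustment over the 45 pairs. Of these, 5 pairs passed 0.05, all with positive r, and 12 had an unadjusted p under 0.05. The median r of the 45 was 0.09, with 29 above 0.

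The 5 pairs joined 5 genes, Ier3, Zfp36, Jun, Egr1 and Dusp1. Ier3 and Zfp36 had the highest correlation (Pearson r = 0.771, permutation p = 4e-05, adjusted p = 0.0018; Spearman rho = 0.820, adjusted p = 0.0018). Without the 2 arrays farthest in Ier3, WT_untreated 5 and KO_untreated 3, r was 0.653. Among 10704 genes ranked by r with Zfp36, Ier3 was in place 8. Among as many ranked by r with Ier3, Zfp36 was in place 9. The other called pairs held lower places, from 40 (Jun, ranked by r with Zfp36) to 252 (Zfp36, ranked by r with Egr1).

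Jun and Ier3 had r = 0.691 (permutation p = 0.0007, adjusted p = 0.0158; rho = 0.694, adjusted p = 0.0135), and r = 0.620 without the 2 arrays farthest in Jun, KO_untreated 3 and 5. Jun and Zfp36 had r = 0.662 (permutation p = 0.00319, adjusted p = 0.0287; rho = 0.647, adjusted p = 0.0347). Egr1 and Dusp1 had r = 0.673 (permutation p = 0.00157, adjusted p = 0.0236; rho = 0.743, adjusted p = 0.0117), and r = 0.653 without WT_untreated 5 and KO_untreated 1, the arrays farthest in Egr1. Egr1 and Zfp36 had r = 0.659 (permutation p = 0.00269, adjusted p = 0.0287), but rho = 0.522 did not pass (adjusted p = 0.150), and without those 2 arrays r was 0.440, so that relation rests on them in part. Over 31 alternative settings Ier3 and Zfp36 passed in each. Jun and Ier3 failed in 1, without KO_untreated 3 (r = 0.601, adjusted p = 0.0684). Egr1 and Dusp1 failed in 7, Jun and Zfp36 in 9, and Egr1 and Zfp36 in 10.

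Fos, the member often used to stand for the whole class, took part in none of the 5 pairs. Its 9 correlations ran from -0.25 with Atf3 to 0.37 with Egr1 (adjusted p = 0.373), and none had an unadjusted p under 0.05. Fosb, Junb, Atf3 and Ier2 took part in none either. Junb and Zfp36 passed by Spearman alone (r = 0.530, adjusted permutation p = 0.0945; rho = 0.630, adjusted p = 0.0242). A fit across all probes, with the group means removed and the level of 1 anchor gene as the slope, called 0 of 9 members for Fos, for Jun and for Zfp36, against 0%, 0% and 0.005% of 19992 probes (limma, Benjamini-Hochberg over all probes). The Fos slope called 449 probes without KO_untreated 2 and 164 without WT_antibiotic 3, and no member in either. At an unadjusted p under 0.05 the slopes of 0, 3 and 5 members passed for these anchors, against 18.1%, 10.3% and 7.14% of all probes. The slope of Ier3 on Zfp36 was 0.99 ± 0.19 (SE; adjusted p = 0.119, limma). The pairs above thus pass over 45 pairs, and not over all probes.

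**Figure D3:**
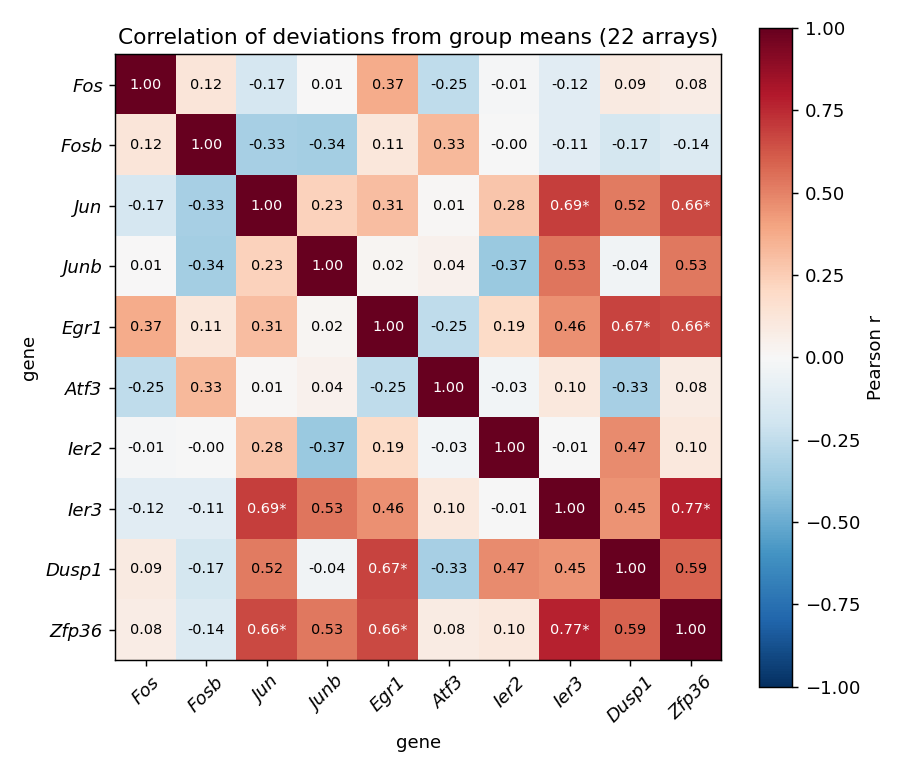
Pearson r of the deviations from group means over 22 arrays for each pair of the 10 genes (both axes); an asterisk marks an adjusted permutation p under 0.05 over 45 pairs. The marked cells are the 5 pairs among Jun, Egr1, Ier3, Dusp1 and Zfp36, and the row of Fos holds values from -0.25 to 0.37.

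**Figure D4:**
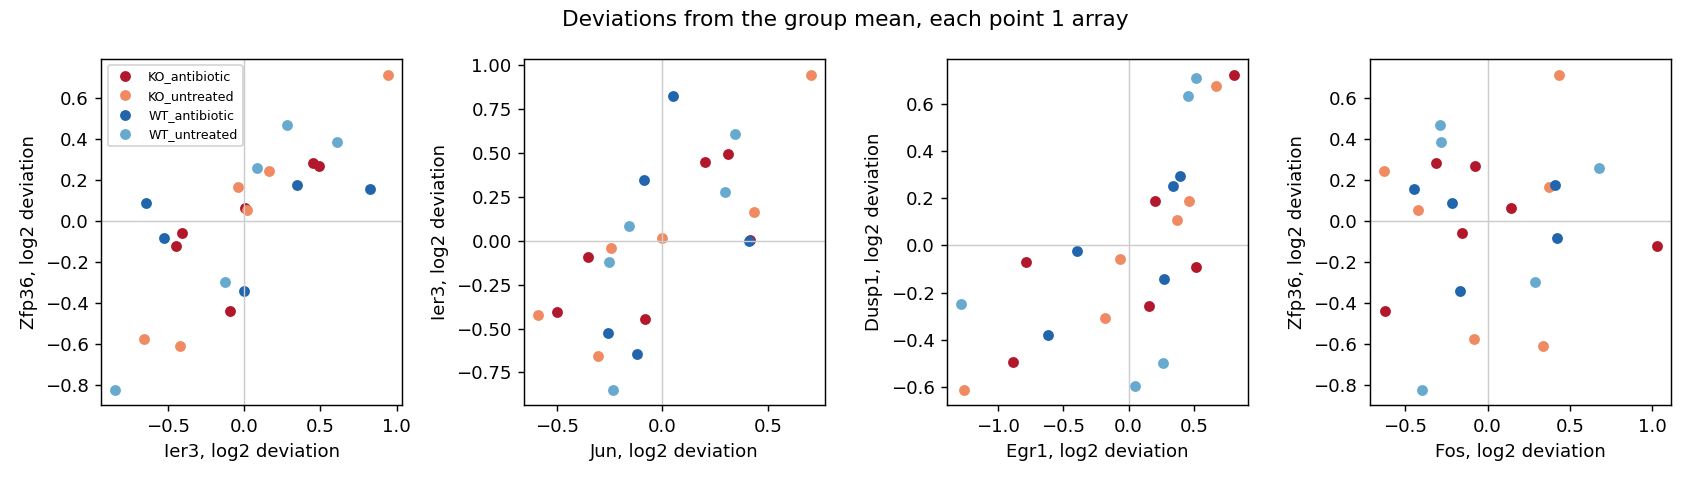
Deviation from the group mean (log2) of one gene against another on 22 arrays, coloured by group, for 3 of the correlated pairs and for Fos with Zfp36. The panels of the correlated pairs slope upwards with r of 0.771, 0.691 and 0.673, and the Fos panel has r = 0.08.

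The promoters above set the pairs beside sequence. Zfp36, which had the highest correlation with Ier3, held a CArG box and an EGR site, and the windows of Ier3 and Jun held no motif searched. The correlated genes with a promoter here had no searched motif in common. Variant sites and sites outside the windows were not looked for, in these genes or in Fos.

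The genes outside the 10 whose deviations were most like the mean deviation of the 10, over 22 arrays and among 10390 genes, were Wfikkn1 (r = 0.859), Trim26 (0.806), Specc1 (0.787), Dazap1 (0.776), Fbrsl1 (0.763) and Hbegf (0.753). Hbegf encodes a ligand of the epidermal growth factor receptor. These correlations are a description, the genes being the highest among those compared, and none of the 6 passed the test in any of the 5 comparisons.

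The other genes of the response were counted from lists. The counts stand beside the shares of all tested probes that passed, higher and lower, which were 5.55% and 5.35% for KO_untreated against WT_untreated mice, 5.33% and 7.06% with antibiotic in KO mice, and 2.49% and 2.27% with antibiotic in WT mice. Of the AP-1 and EGR families outside the 10, 8 of 13 were tested. Jund, which encodes a further Jun family protein, was higher in KO_untreated than in WT_untreated mice by 0.80 ± 0.24 (SE; adjusted p = 0.0395, limma) and higher in WT_antibiotic than in WT_untreated mice by 1.01 ± 0.26 (adjusted p = 0.0239). Batf2, a basic leucine zipper gene, differed by -0.74 between KO_antibiotic and KO_untreated mice (adjusted p = 0.0428). These 3 calls were lost under median scaling over all probes, and single arrays ended them too: that of Jund between the untreated genotypes without any one of WT_untreated 1 to 4 and KO_untreated 1, 4, 5 and 6, that of Jund with antibiotic in WT without any one of WT_untreated 1 and 3 and WT_antibiotic 1 and 2, and that of Batf2 without any one of 9 arrays, 8 of them KO arrays. The list's median was 0.17 in the untreated genotype comparison and 0.02 in the antibiotic comparison in KO.

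Of 35 tested genes in a list of other immediate early genes (45 listed), 2 were higher and 1 lower in KO_untreated than in WT_untreated mice, with a median of 0.13, against 5.55% and 5.35% of all tested probes. Gadd45g, a stress-inducible gene linked to growth arrest, averaged 10.63 in KO_untreated and 9.48 in WT_untreated mice, a difference of 1.15 ± 0.32 (SE; adjusted p = 0.0269, limma). Phlda1 was higher by 1.04 (adjusted p = 0.0255) and Sgk1, a kinase that regulates sodium transport, differed by -0.74 (adjusted p = 0.0156). All 3 calls were lost under median scaling over all probes, with adjusted p between 0.0615 and 0.116. Gadd45g was also lost without any one of WT_untreated 1 and 5 and KO_untreated 1 and 4, Phlda1 without WT_untreated 5 or KO_untreated 4 or 5, and Sgk1 without WT_untreated 4.

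In KO_antibiotic against KO_untreated mice 3 of those 35 were higher and 5 lower, with a median of -0.08, against 5.33% and 7.06% of all tested probes. Gadd45g averaged 8.75 in KO_antibiotic and 10.63 in KO_untreated mice (difference -1.88 ± 0.31, SE; adjusted p = 0.000182, limma). Socs3, an inhibitor of cytokine signalling, averaged 6.56 in KO_antibiotic and 8.22 in KO_untreated mice (-1.66 ± 0.35; adjusted p = 0.00194). Btg1, an antiproliferative gene, was higher by 0.84 (adjusted p = 0.000319) and Id2, an inhibitor of helix-loop-helix factors, by 0.74 (adjusted p = 0.00741). Nr4a2, a nuclear receptor, differed by -0.65, Phlda1 by -0.90, Ier5l by -0.42 and Hes1, a target of Notch signalling, by 0.59. Nr4a2 was detected on 2 of 6 and Ier5l on 1 of 6 KO_antibiotic arrays, against 5 of 6 KO_untreated arrays for each. Gadd45g, Socs3 and Btg1 passed under all 36 alternative settings, Id2 under 35 of 36, Nr4a2 under 31, Hes1 under 28 (highest adjusted p 0.338), Phlda1 under 23 and Ier5l under 24 of 35. Under median scaling over all probes 4 of the 8 passed. In WT_antibiotic against WT_untreated mice only Gadd45g of the 35 passed, at -1.17 (adjusted p = 0.0447, limma). It held in 18 of 36 settings, and not with probes averaged per gene.

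Among 9 tested dual-specificity phosphatases other than Dusp1, Dusp7 was higher in KO_untreated than in WT_untreated mice by 0.62 (adjusted p = 0.0151, limma), and lower in both antibiotic comparisons, with -0.70 in KO mice (adjusted p = 0.00174) and -0.60 in WT mice (adjusted p = 0.0281). Dusp6, a phosphatase of ERK, averaged 9.07 in WT_antibiotic and 10.06 in WT_untreated mice (-0.998 ± 0.222, SE; adjusted p = 0.0107). The signs for Dusp7 in KO were the reverse of those of Dusp1, whose values of -0.66 and 0.55 did not pass. Under median scaling over all probes the Dusp7 call in the KO antibiotic comparison held, and the other calls of this list did not. The Dusp6 call was also lost when the probes of each gene were averaged.

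Of 19 tested upstream kinases and transcription factors, Mapk8 (the kinase JNK1) alone passed, at -0.82 in KO_untreated against WT_untreated mice (adjusted p = 0.0372, limma). Its call held in 24 of 36 settings, with a highest adjusted p of 0.145 and differences between -0.91 and -0.34. Averaging the probes of each gene was among the settings that ended it. None of the 7 tested genes of the epidermal growth factor receptor and its ligands passed in any comparison. Erbb2, a partner of that receptor, was nearest, at 0.35 with antibiotic in KO mice (adjusted p = 0.111, limma), and Egfr itself had -0.49 with antibiotic in WT mice (adjusted p = 0.144). Of 5 tested transcripts that Zfp36 destabilises, Tnf and Cxcl1 were lower in KO_antibiotic than in KO_untreated mice (adjusted p = 0.018 and 0.0335). Neither was well above background on any KO_antibiotic array, and each was on 4 of 6 KO_untreated arrays, so that both were at least 1.17-fold lower, the fold being set against the lowest signal among detected probes or the probe's own where higher. Both were lost under median scaling over all probes, Tnf also without KO_untreated 5, and Cxcl1 without any one of KO_untreated 2 and 3 and KO_antibiotic 1, 4 and 6. Zfp36 itself differed by 0.32 in that comparison, which did not pass.

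Heat shock genes encode chaperones that stressed cells make. Of 15 tested, 4 were higher and none lower in KO_untreated than in WT_untreated mice (median 0.19), against 5.55% and 5.35% of all tested probes. Hspa1a, an inducible chaperone of the HSP70 family, averaged 8.29 in KO_untreated and 6.18 in WT_untreated mice, a difference of 2.12 ± 0.50 (SE; adjusted p = 0.0126, limma). Hspa1b was higher by 1.75, Bag3 by 0.69 and Dnajb1 by 0.62. In KO_antibiotic against KO_untreated mice 6 of the 15 were lower and none higher (median -0.53), against 7.06% and 5.33% of all tested probes. There Hspa1a averaged 4.95 in KO_antibiotic and 8.29 in KO_untreated mice (-3.34 ± 0.47; adjusted p = 4.01e-05), Hspa1b differed by -2.38, Hsph1 by -1.96 and Hsp90aa1 by -1.39. Hspa1a and Hspa1b were each detected on 3 of 6 KO_antibiotic arrays, and over the alternative settings the Hspa1a difference lay between -3.68 and -1.79 there and between 1.26 and 2.71 in the genotype comparison. The near-identical Hspa1a and Hspa1b may share signal between their probes. None of the 15 passed in WT_antibiotic against WT_untreated mice, where the median was -0.40, against 0.03 over all tested probes. There 5 of 15 had an unadjusted p under 0.05 (limma), against 19.3% of all probes. Hspa4l was nearest, at -0.99 (adjusted p = 0.0561, limma), then Hsph1 at -0.94 (adjusted p = 0.0917). In the interaction none passed either, Hspa1a having -1.99 (adjusted p = 0.512), so a difference between the genotypes in this response was not shown. Hspa1a and Dnajb1 passed under all 36 alternatives in both KO comparisons, Hspa1b was lost without any one of WT_untreated 1, 2 and 4 in the genotype comparison, and Bag3 held in 26 and 20 of 36 settings, its highest adjusted p being 0.0954 and 0.184.

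The ATF4 list, which holds genes of the integrated stress response near Atf3, had 12 of 12 genes tested. In KO_untreated against WT_untreated mice 3 were higher, Chac1 by 1.33, Asns by 0.88 and Cebpb by 0.68. In KO_antibiotic against KO_untreated mice 3 were lower, Chac1 with -2.70 (adjusted p = 9.48e-06, limma), Asns with -1.45 and Ppp1r15b with -0.53, and Cebpg was higher by 0.50. In WT_antibiotic against WT_untreated mice 3 were lower, Chac1 with -2.04, Nupr1 with -1.08 and Asns with -0.78. With antibiotic in KO mice Asns and Chac1 passed in all 36 settings, and Cebpg was lost, among others, with probes averaged per gene. In the genotype comparison Cebpb passed in 16 of 36, and Chac1 was lost without WT_untreated 2 or KO_untreated 5. With antibiotic in WT mice Nupr1 was lost without any one of WT_untreated 1 and WT_antibiotic 1 and 2. Median scaling over all probes left 2 of 3 calls in the genotype comparison, 2 of 4 with antibiotic in KO mice (Ppp1r15b and Cebpg were lost) and 1 of 3 in WT mice, where Asns had an adjusted p of 0.22 and Nupr1 of 0.138. Atf3 itself differed by 0.07, -0.25 and -0.25 in these 3 comparisons and passed in none.

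**Figure D5:**
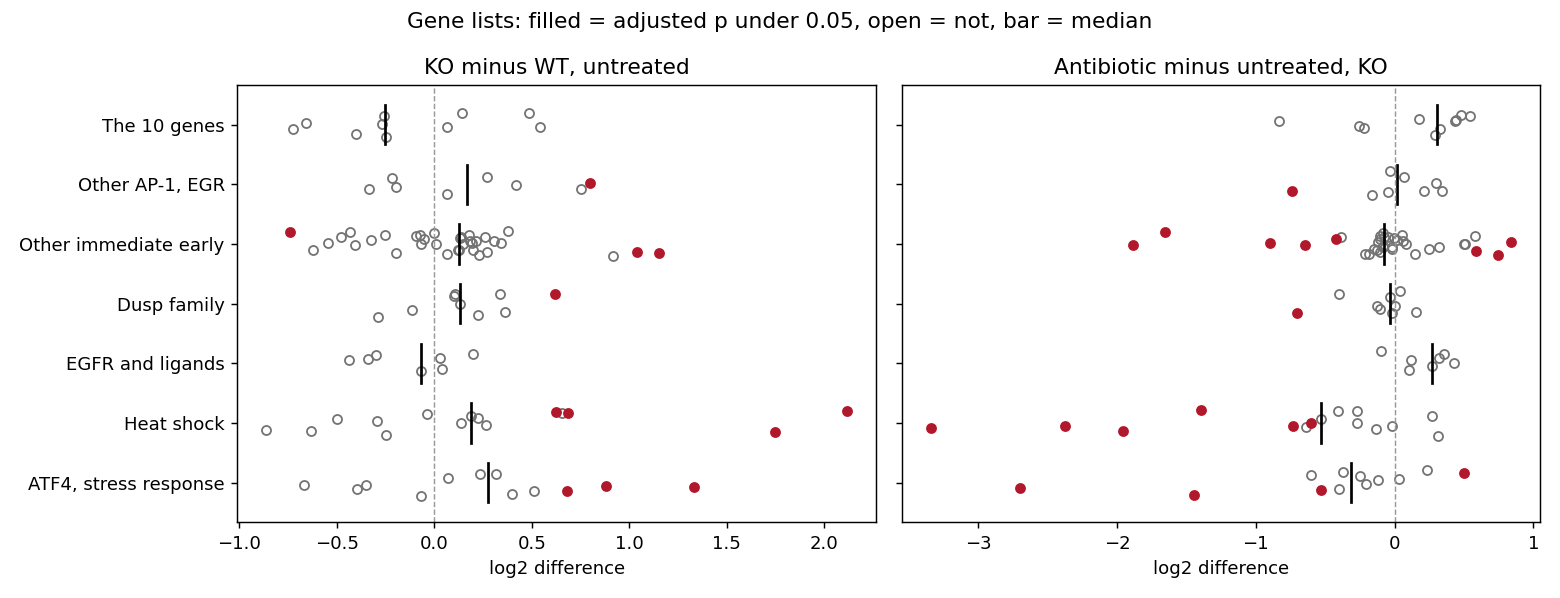
Log2 difference (x axis) of each tested gene, by gene list (y axis), for KO minus WT in untreated mice (left) and antibiotic minus untreated in KO mice (right); filled points passed an adjusted p under 0.05 and bars are list medians. The 10 genes have no filled point in either panel, and Hspa1a reaches 2.12 on the left and -3.34 on the right.

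Markers of other cells moved in the comparisons in which these lists moved. Of 7 tested mast cell and granulocyte markers, 3 were higher in KO_untreated than in WT_untreated mice, against 5.55% of all tested probes. In KO_antibiotic against KO_untreated mice 4 were lower, against 7.06% of all tested probes. Mcpt1, a mast cell protease, averaged 6.02 in KO_antibiotic, 9.88 in KO_untreated and 6.84 in WT_untreated mice. The mast cell proteases Cma2 and Mcpt4 also passed in both comparisons, with 2.78 and 1.22 in the genotype comparison. Each of these 2 was detected on 2 of 5 WT_untreated arrays. Over all arrays Cma2 was detected on 10, of which 6 were KO_untreated, and Mcpt4 on 7, of which 5 were KO_untreated. Both met the filter of 5 arrays only through KO_untreated mice, where they are high. The filter thus favoured their part in the counts above, which is no separate support. With antibiotic in KO mice Cma2 had -3.47 (detected on 1 of 6 KO_antibiotic arrays), Cpa3 had -1.46 (also on 1 of 6), and Mcpt4, not well above background on any KO_antibiotic array, was at least 1.99-fold lower. The summed signal of all 7 tested markers was 696 to 1373 in KO_antibiotic and 1672 to 4372 in KO_untreated mice. It was 612 to 1875 in WT_antibiotic and 538 to 1743 in WT_untreated mice. Kit, S100a8 and S100a9 enter this sum beside the proteases. The goblet cell gene Spink4 was higher in KO_untreated than in WT_untreated mice by 1.30 and lower in KO_antibiotic than in KO_untreated mice, with -2.53. It was also lower in WT_antibiotic than in WT_untreated mice, with -1.50, while Tff3, another goblet cell gene, was higher in KO_antibiotic than in KO_untreated mice by 0.52 (adjusted p = 0.0451, limma; 19 of 36 settings). The epithelial keratin Krt18 was higher in KO_untreated than in WT_untreated mice by 0.72, and differed by -1.24 with antibiotic in KO mice and by -0.60 in WT mice. The summed signal of the 4 tested goblet markers was 39889.5 to 63347 in KO_antibiotic, 70103 to 87677 in KO_untreated, 46428 to 58946 in WT_antibiotic and 51812 to 67190 in WT_untreated mice. The summed signal of the leukocyte markers was 1127 to 2993 in KO_antibiotic, 627 to 3171 in KO_untreated, 1330 to 1910 in WT_antibiotic and 1259 to 2061 in WT_untreated mice. Dcn, a fibroblast gene, was lower in KO_untreated than in WT_untreated mice, with -1.27 (adjusted p = 0.0489, limma), a call held in 13 of 36 settings. The part of these cells in the levels of the 10 genes and of the lists was not tested.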

How the data were processed

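Per the labels, RNA from colonic epithelial cells was amplified and labelled with biotin and hybridised to Illumina bead arrays. The intensity of each probe and its detection p-value come from the deposited scanner table. The authors' processed values, a deposited linear signal whose columns hold the same sorted values (median 52.0), served as an alternative. How they were normalised beyond that is not stated in the labels.

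Intensities were background-corrected, quantile-normalised and put on the log2 scale with limma's neqc (limma 3.58.1, R 4.3.3; offset 16). A probe was tested if its detection p was under 0.05 on at least 5 arrays. A single limma fit with 4 group means over 22 arrays gave 5 two-sided contrasts, with Benjamini-Hochberg adjustment across the tested probes and a threshold of 0.05. Further fits took the level of Fos, Jun or Zfp36 as a slope within groups. Pair correlations used 100000 permutations within groups (numpy 2.4.6, scipy 1.17.1).

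Probes were named from the platform annotation: 34885 had 1 symbol, 18 had several and 10378 had none. Each gene of a list was represented by 1 tested probe, and the rule for naming took the members, Pigr, per list and comparison at most 4 genes that passed (by smallest p) or up to 2 nearest to passing where none did, and the 6 genes most like the members. Genes named beyond it were chosen after their values were seen: Nr4a2, Hes1, Phlda1 and Ier5l with antibiotic in KO mice, Hsp90aa1 and Bag3 there, and the leukocyte markers named by detection. No 2 arrays held identical values. The labels do not say that arrays come from separate mice, so p-values measure only the spread between these samples. The members and lists were chosen with earlier results of these data known. The fits were tested on simulated data.

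The alternatives changed the background correction, scaling, filter, array weights, replicate block, covariates, samples and probe averaging, and left out each array in turn. Zfp36 as an anchor and the 45 pairs were added after seeing the data. Slide and scan date as blocks were not run, since the tables hold neither.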

Additional observations from a re-analysis of the deposited data

Results flagged for a closer look

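In groups of 5 or 6 arrays, each gene's highest and lowest array was set against its nearest neighbour with Dixon's 95% critical value, which chance passes in about 1 in 20 groups. Of 40 gene and group combinations, 2 had an array that far from the rest, both on WT_untreated 5. Egr1 was 9.813 there on the log2 scale, against 11.153 on the nearest and 11.619 on the farthest other WT_untreated array, a gap of 0.742 of the range where 0.710 is critical. Atf3 was 6.257 there, against 6.929 on the nearest and 7.072 on the farthest array, a gap of 0.824 of the range.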

How the results depend on the processing

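No difference between groups that passed the threshold changed sign, and none of the 10 genes passed it in every setting. Of 807 gene values under settings that were not single omissions, 14 came past the threshold, as did 10 of 1298 with 1 array left out. In KO_antibiotic against KO_untreated mice the count of genes called, 0, became 1 (Ier3, lower) under no background correction (adjusted p = 0.0499), scaling to the median of probes detected on every array (0.0473), a stricter filter (0.0462), the number of detected probes as covariate (0.042), the leukocyte score as covariate (0.0458), KO_untreated 1 and 2 averaged (0.047), probes averaged per gene (0.0439) and a fit of the compared groups alone (0.0443). With 1 array left out the count was 0 to 1 there, Ier3 passing without any one of KO_antibiotic 1 and 2, KO_untreated 1 and 6, WT_antibiotic 1 and 3 and WT_untreated 1 and 5. In KO_untreated against WT_untreated mice it became 2 with array weights (Junb, adjusted p = 0.0488, and Dusp1, 0.0273), and 1 with the replicate block (Junb, 0.58, adjusted p = 0.0353). In WT_antibiotic against WT_untreated mice it became 2 with array weights (Jun, 0.0243, and Junb, 0.00705) and 1 with the compared groups alone (Junb, 0.0454), and was 0 to 1 with 1 array left out (Junb, without WT_antibiotic 3 or KO_antibiotic 6). The cause was not tested. Whether replicate numbers pair the arrays was not settled: same-numbered arrays had correlations of -0.377 to 0.527, 12 of 31 over 0.1. In 7 of the 31 pairs the same-numbered array was the best match in the other group. The block raised the calls over all probes in KO_untreated against WT_untreated mice to 3358, against 2180 without it.

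The count of correlated pairs, 5, became 11 under median scaling over all probes, 10 with the replicate block, 8 with detected probes as covariate, and 2 with KO_untreated 1 and 2 averaged or with KO_antibiotic 3 and 4 left out. With 1 array left out it was 1 to 8. The lowest count was without KO_untreated 3 and the highest without KO_antibiotic 6, and it was 2 without any one of KO_antibiotic 3, KO_untreated 1 and WT_untreated 1 and 2.

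Over all probes, median scaling over all probes left 319 calls in KO_untreated against WT_untreated mice (240 higher, 79 lower, against 1110 and 1070), 1283 in KO_antibiotic against KO_untreated mice (377 higher, 906 lower, against 1066 and 1412) and 237 in WT_antibiotic against WT_untreated mice (76 higher, 161 lower, against 497 and 453). Without a filter there were 982, 1956 and 550 calls, and with array weights 3262, 2831 and 2276. With KO_untreated 1 and 2 averaged, the slope on Fos called 483 probes, against 0, and with 1 array left out 0 to 449 (449 without KO_untreated 2, 164 without WT_antibiotic 3). Of 57 calls in the lists, followed through 2049 values, none changed sign. Signals near background limit Fosb and Ier2.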
